A study of Mus musculus with 8 samples.

Results

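The alpha and beta crystallins and gamma S crystallin were followed in 8 retina libraries, as the rows of 9 gene symbols (Cryaa, Cryab, Cryba1, Cryba2, Cryba4, Crybb1, Crybb2, Crybb3 and Crygs) among the 55213 gene rows of the count tables. All 9 passed the minimum of 10 counts over the libraries, as did 26900 genes in all. Each library holds RNA of 1 whole retina from a different germ-free (GF) male C57B1/6 mouse, an animal raised without microbes. A high-fat diet with 23% saturated fat was fed to 4 GF-HFD animals (mouse 13, 15, 16 and 19) and a normal diet to 4 GF-ND animals (mouse 9, 10, 11 and 12), both for 8 weeks from 7 weeks of age, up to 15 weeks. No group with microbes was analysed here, so every value belongs to germ-free animals. The comparison asks whether the diet changes retinal transcription when gut microbes are absent.

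Crystallins are the main soluble proteins of the lens, where their dense packing gives the tissue its refraction. The alpha crystallins are small heat shock proteins that keep other proteins from aggregating, while the beta and gamma crystallins are structural relatives built from Greek key folds. Outside the lens, Cryab is made in heart, muscle and glia, and several crystallins have been described in retinal neurons and glia, above all under stress. The lens lies next to the retina in the eye, and its fibre cells carry defining genes of their own, among them the gamma crystallins, the beaded filament proteins Bfsp1 and Bfsp2, and the membrane channel Mip.

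Libraries differed in their crystallin content before any comparison. The library totals were 39258006 to 44357518 counts, which were scaled with TMM factors and are given as CPM, counts brought to a common library size. The 9 crystallins took 1.29% of all counts in GF-HFD mouse 19 and 6.40% in GF-ND mouse 11 (95% Wilson interval 6.39 to 6.40%), while the other 3 GF-HFD libraries held 0.0254 to 0.0652% and the other 3 GF-ND libraries 0.0203 to 0.186%. Mice 11 and 19 together gave 95.5% of the 3524740 crystallin counts. Intervals of this kind cover counting error only. Small counts were mostly even in these tables, which makes such intervals too narrow if reads were counted in pairs.

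The 9 genes lie on 6 chromosomes of GRCm38. Cryaa is on chromosome 17 (31677807 to 31681733), Cryab on chromosome 9 (50751325 to 50756636), Cryba1 on chromosome 11 (77718615 to 77725283), Cryba2 on chromosome 1 (74889934 to 74893143) and Crygs on chromosome 16 (22805203 to 22811577). Chromosome 5 holds the other 4. Cryba4 (112246493 to 112252518, minus strand) and Crybb1 (112255815 to 112269585, plus strand) point away from each other with 3297 bases between their starts, and Crybb2 (113058258 to 113070117) and Crybb3 (113075839 to 113081584) follow each other on the minus strand. Cryab overlaps the small heat shock gene Hspb2 on the opposite strand, Cryba1 overlaps Nufip2, Crybb2 overlaps the pseudogene Gm43247, and Cryaa overlaps the antisense gene AC090881.2. The strand setting of the counting is not given in the sources used here, so the counts of these 4 genes are uncertain where they overlap.

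The 150 bases upstream of the RefSeq transcript start are shown from RefSeq on GRCm38.p6 for 5 of the 9 genes. They are the lens-restricted Cryaa, the acidic Cryba1, the neighbours Cryba4 and Crybb1, and Crybb2, which held neither motif. Capitals mark the letters TATAAA, the TATA box, and TGCTGA, the core of the element bound by Maf proteins, which activate crystallin genes in the lens. Each was searched on both strands.
Cryaa (chr17:31677781-31677930, plus strand): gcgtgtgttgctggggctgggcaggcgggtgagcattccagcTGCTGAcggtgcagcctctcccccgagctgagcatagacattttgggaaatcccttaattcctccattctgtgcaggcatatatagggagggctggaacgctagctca
Cryba1 (chr11:77725294-77725443, minus strand): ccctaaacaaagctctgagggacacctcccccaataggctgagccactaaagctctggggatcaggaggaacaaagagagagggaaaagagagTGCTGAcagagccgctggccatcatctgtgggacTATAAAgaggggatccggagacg
Cryba4 (chr5:112252519-112252668, minus strand): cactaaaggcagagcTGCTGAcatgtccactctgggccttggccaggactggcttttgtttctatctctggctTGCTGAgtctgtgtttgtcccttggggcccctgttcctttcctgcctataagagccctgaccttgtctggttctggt
Crybb1 (chr5:112255670-112255819, plus strand): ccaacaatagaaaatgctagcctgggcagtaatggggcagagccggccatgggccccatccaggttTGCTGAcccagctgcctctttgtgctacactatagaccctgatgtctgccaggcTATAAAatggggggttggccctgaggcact
Crybb2 (chr5:113070118-113070267, minus strand): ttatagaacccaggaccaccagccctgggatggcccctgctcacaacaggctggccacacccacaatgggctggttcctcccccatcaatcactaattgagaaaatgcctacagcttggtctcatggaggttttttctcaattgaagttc
TGCTGA was present upstream of 6 of the 8 crystallins with an entry (Cryaa, Cryba1, Cryba2, Cryba4, Crybb1 and Crybb3), and in 10.1% of the 32851 RefSeq promoter windows of the same length. Cryba4 held it at 2 places, from -135 and from -77 relative to the start. TATAAA was present in 3 (Cryba1 from -23, Crybb1 from -30 and Crygs from -25) and in 7.57% of all windows. The core of the heat shock element, GAANNTTC, was found in 0 of the 8 windows and in 3.95% of all. Cryab was the gene without an entry, so no upstream bases of Cryab were searched for any of the motifs. No matches of the motifs overlapped each other, and a match is a description of letters, not a measured binding site. The part of these motifs in the crystallin levels of the libraries was not tested.

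Both alpha crystallins had the same order of mice within each diet. Cryaa, the alpha crystallin that is largely restricted to the lens, was at 74.1, 141, 202 and 4648 CPM in GF-HFD mice 13, 15, 16 and 19 and at 136, 689, 18967 and 51.1 CPM in GF-ND mice 9, 10, 11 and 12. Cryab, the stress-inducible alpha crystallin, was at 42.9, 66.4, 90.9 and 1876 CPM in the same GF-HFD mice and at 71.1, 273, 6762 and 35.8 CPM in the GF-ND mice. In both genes 1 library of each diet stood far above its group, and the remaining GF-HFD values lay inside the range of the remaining GF-ND values.

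The acidic beta crystallins, which pair with basic partners in the lens, kept that order within each diet. Cryba1 was at 24.8, 46.9, 71.4 and 1390 CPM in GF-HFD mice 13, 15, 16 and 19 and at 52.3, 166, 7817 and 19.98 CPM in GF-ND mice 9, 10, 11 and 12. Cryba2 was at 14.3, 24.6, 34.5 and 704 CPM in the GF-HFD mice and at 22.6, 90.4, 4192 and 9.16 CPM in the GF-ND mice. Cryba4 was at 7.98, 18.8, 25.6 and 337 CPM in the GF-HFD mice and at 17.8, 40.5, 2734 and 6.75 CPM in the GF-ND mice. Within each diet the 4 mice kept 1 order in all 3 genes, with mouse 13 lowest in GF-HFD and mouse 12 lowest in GF-ND retinas.

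Among the basic beta crystallins, Crybb2, the form that is most abundant in the adult lens, was at 58.4, 90.4, 155 and 2713 CPM in GF-HFD mice 13, 15, 16 and 19 and at 95.2, 365, 17739 and 53.3 CPM in GF-ND mice 9, 10, 11 and 12. Crybb1 was at 5.83, 7.79, 12.0 and 164 CPM in the GF-HFD mice and at 8.32, 27.8, 1415 and 2.97 CPM in the GF-ND mice. Crybb3 was at 6.38, 9.78, 14.7 and 272 CPM in the GF-HFD mice and at 10.2, 40.8, 1735 and 4.43 CPM in the GF-ND mice. All 3 were highest in GF-ND mouse 11 and lowest in GF-ND mouse 12, as the plot of levels by library shows. Crygs, a gamma crystallin of the outer lens layers, was at 18.9, 35.4, 48.5 and 924 CPM in the GF-HFD mice and at 36.8, 105, 5736 and 12.9 CPM in the GF-ND mice, again with the same order within each diet. Between the diets, mice 9 and 15 changed places among the 9 genes, and the other 6 mice kept their places.

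**Figure D1:**
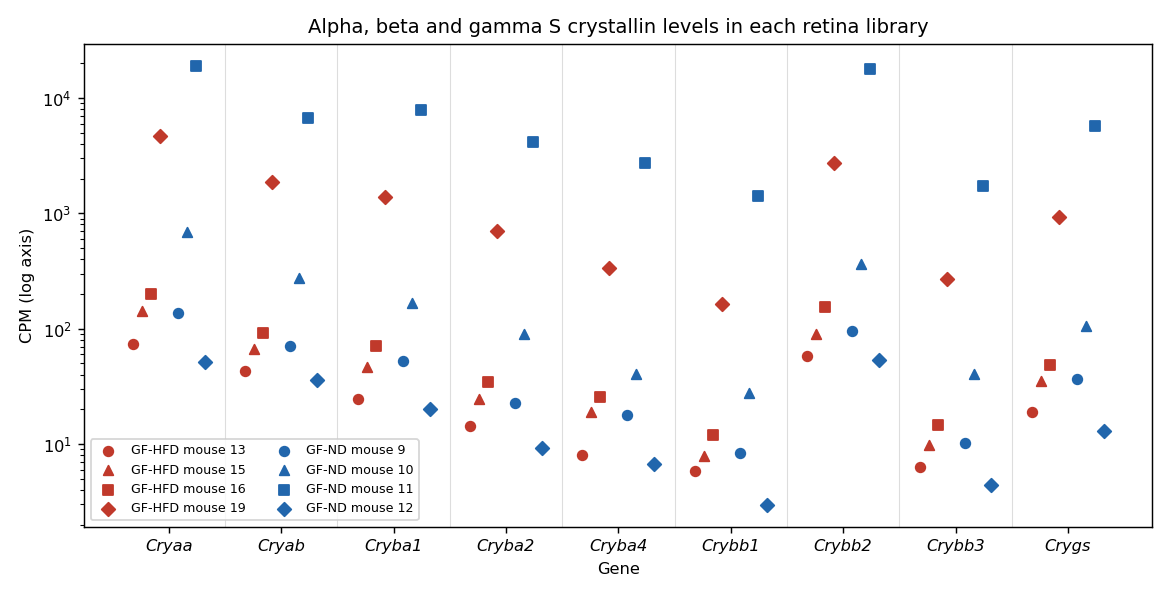
CPM on a log axis (y) of the 9 crystallin genes (x) in each library, GF-HFD mice in red left of GF-ND mice in blue. GF-ND mouse 11 and GF-HFD mouse 19 are the highest 2 libraries in every gene, GF-ND mouse 10 is the third, and for Cryaa the 8 values run from 51.1 to 18967 CPM.

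The 6 libraries other than mice 11 and 19 were themselves spread widely. Among them the highest value was 6.00 (Cryba4) to 13.5 times (Cryaa) the lowest, with mouse 12 lowest and mouse 10 highest in all 9 genes. Over these 6 the median was 138 CPM for Cryaa, 68.7 CPM for Cryab and 92.8 CPM for Crybb2. Mouse 19 was 18.4 (Cryba4) to 33.6 times (Cryaa) the median of the 6, and mouse 11 was 98.4 (Cryab) to 191 times (Crybb2). Mouse 11 over mouse 19 ranged from 3.61 for Cryab and 4.08 for Cryaa to 8.12 for Cryba4 and 8.60 for Crybb1, so the alpha crystallins differed less between these libraries than the beta crystallins did. These are single libraries, and the ratios have no replicate error.

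Levels of different genes were compared per kilobase of annotated exon, a length that pools all transcript forms of a gene. Over the 6 libraries the median level was 66.7 CPM per kilobase for Cryaa, 46.5 for Cryab, 46.1 for Crybb2, 41.3 for Crygs and 31.1 for Cryba1, and it was 8.18 for Crybb1 and 4.29 for Crybb3. On this scale Cryaa ranked highest in 7 of the 8 libraries and Crybb2 in the other, GF-ND mouse 12, where Crybb2 was at 26.5 and Cryaa at 24.6 CPM per kilobase. Crybb1 was the eighth and Crybb3 the ninth of 9 in all 8 libraries. Cryba2 and Cryba4 exchanged the sixth and seventh place between libraries, and Cryab moved between the second and the fifth place, the fifth being in GF-ND mouse 11. Neighbours in this order whose places changed between libraries (Cryab with Crybb2, and Cryba2 with Cryba4) did not differ beyond the spread over libraries.

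The make-up of the crystallin counts changed far less between libraries than their amount. Cryaa took 29.2, 31.97, 30.8 and 35.7% of the counts of the 9 genes in GF-HFD mice 13, 15, 16 and 19 and 30.2, 38.4, 28.3 and 26.0% in GF-ND mice 9, 10, 11 and 12. Crybb2 took 20.5 to 23.7% in the GF-HFD mice against 20.3 to 27.1% in the GF-ND mice. Cryba1 took 9.78 to 10.9% in GF-HFD mice against 9.24 to 11.7% in GF-ND mice. The highest Cryaa shares were thus in mice 10 and 19, and the groups overlapped for all 3 genes.

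Cryab departed most from the rest in mouse 11. Its share was 16.9, 15.1, 13.9 and 14.4% in GF-HFD mice 13, 15, 16 and 19 and 15.8, 15.2, 10.1 and 18.2% in GF-ND mice 9, 10, 11 and 12 (95% Wilson intervals of 10.04 to 10.11% in mouse 11 and 17.4 to 19.1% in mouse 12, counting error only). The ratio of Cryab to Cryaa counts was 0.357 in mouse 11, 0.396 in mouse 10 and 0.404 in mouse 19, the 3 libraries with the most crystallin counts, and 0.451 to 0.701 in the other 5. The highest ratio, 0.701, was in mouse 12, the library with the fewest. Between neighbours on chromosome 5, Cryba4 had 1.37 to 2.41 times the counts of Crybb1 in GF-HFD and 1.45 to 2.27 times in GF-ND retinas, and Crybb2 had 9.15 to 10.5 times the counts of Crybb3 in GF-HFD and 8.94 to 12.0 times in GF-ND retinas.

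**Figure D2:**
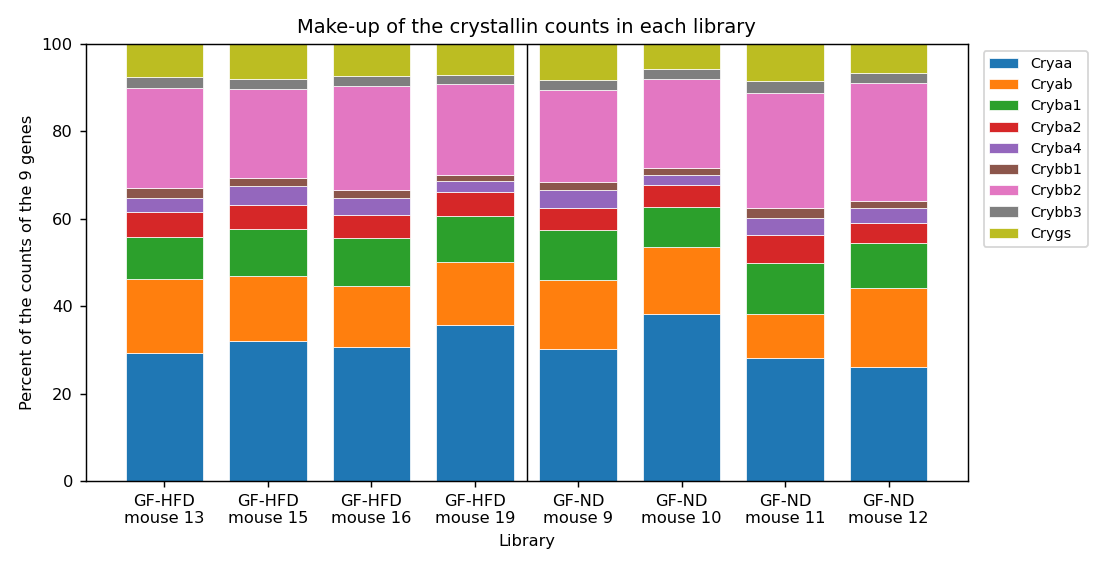
Percent of the counts of the 9 crystallins (y) that each gene took in each library (x), GF-HFD mice left of the line and GF-ND mice right of it. Cryaa holds 26.0 to 38.4% everywhere, and Cryab is narrowest in GF-ND mouse 11 at 10.1%.

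Across the 26900 genes tested, 0 (0%) differed between the diets in edgeR's quasi-likelihood test at an adjusted p under 0.05, with 1985 at an unadjusted p below 0.05. DESeq2 called 46 genes and limma-voom 0, and in edgeR 0 of the 9 crystallins passed at either level. Since each library comes from another mouse, these p-values rest on the spread between mice. By the thresholds in the study's methods, applied to the unadjusted p (below 0.01) and to the log2 fold change (above 1 or below -1), 0 of the 9 and 0.457% of all genes were called. Cryaa averaged 1266 ± 2255 CPM in the GF-HFD mice against 4961 ± 9342 CPM in the GF-ND mice (SD, n = 4 each), and its log2 fold change was -1.97 (SE 1.79, edgeR adjusted p = 0.776). Cryab averaged 519 ± 905 CPM in the GF-HFD mice against 1785 ± 3319 CPM in the GF-ND mice (log2 fold change -1.78, SE 1.67, edgeR adjusted p = 0.787). Over the 9 genes the log2 fold change ran from -2.94 (Crybb1) to -1.78 (Cryab), with a median of -2.52 beside -0.03 over all genes tested. These fitted values follow the group means, and the differences of the mean log2 CPM were smaller, from -0.97 (Crybb2) to -0.80 (Cryba2), as were those of limma-voom (median -0.84).

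In all 9 genes each SD exceeded its mean, and the means differed by less than the SD of the GF-ND mice. On the log2 CPM, an exact permutation test (two-sided) gave p = 0.714 for Cryaa, Cryba2 and Cryba4, 0.686 for Cryba1, Crybb1 and Crygs, and 0.657 for Cryab, Crybb2 and Crybb3, where 4 mice against 4 allow no p under 0.0286. The groups overlapped in all 9 genes, while 4.83% of all genes tested had groups that did not overlap.

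The sign of the diet difference was decided by single libraries. Mice 11 and 19 had been picked out with earlier results of these data known. Without GF-ND mouse 11 all 9 fitted log2 fold changes were above 0, from 1.88 (Crybb1) to 2.33 (Crygs), with SEs of 1.12 to 1.35. Without GF-HFD mouse 19 all 9 were below 0, from -5.49 (Crybb2) to -4.74 (Cryab). Without both, all 9 were below 0 and nearer to it, from -1.06 (Cryaa) to -0.31 (Cryba4), and without mouse 10 as well, a choice made after the values were seen, all 9 were above 0, from 0.32 (Cryab) to 0.62 (Cryba2). The genes moved as a block each time, and as they share their libraries the 9 are not independent of each other.

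In none of these 4 sample sets was a crystallin called at an adjusted p under 0.05 or at the thresholds of the study's methods. Among all genes, 1.6% were called at the adjusted p and 1.34% at those thresholds without mouse 11, and 0.214 and 1.14% without mice 11 and 19. The same rules called 0 and 76 of 26383 genes without mouse 19, and 0 and 193 of 24952 without mice 10, 11 and 19. Without mouse 19, all 9 crystallins had an unadjusted edgeR p under 0.05 (0.0262 to 0.0313), as had 1501 of all 26383 genes tested. The edgeR adjusted p of each crystallin was 0.801 there, and the two-sided exact permutation test gave 0.429 to 0.600. Without mice 11 and 19, Cryaa averaged 140 ± 62.7 CPM in the GF-HFD mice against 292 ± 344 CPM in the GF-ND mice (SD, n = 3 each), and its log2 fold change was -1.06 (SE 0.68, edgeR adjusted p = 0.422, exact permutation p = 0.900, where 3 against 3 allow none under 0.100).

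**Figure D3:**
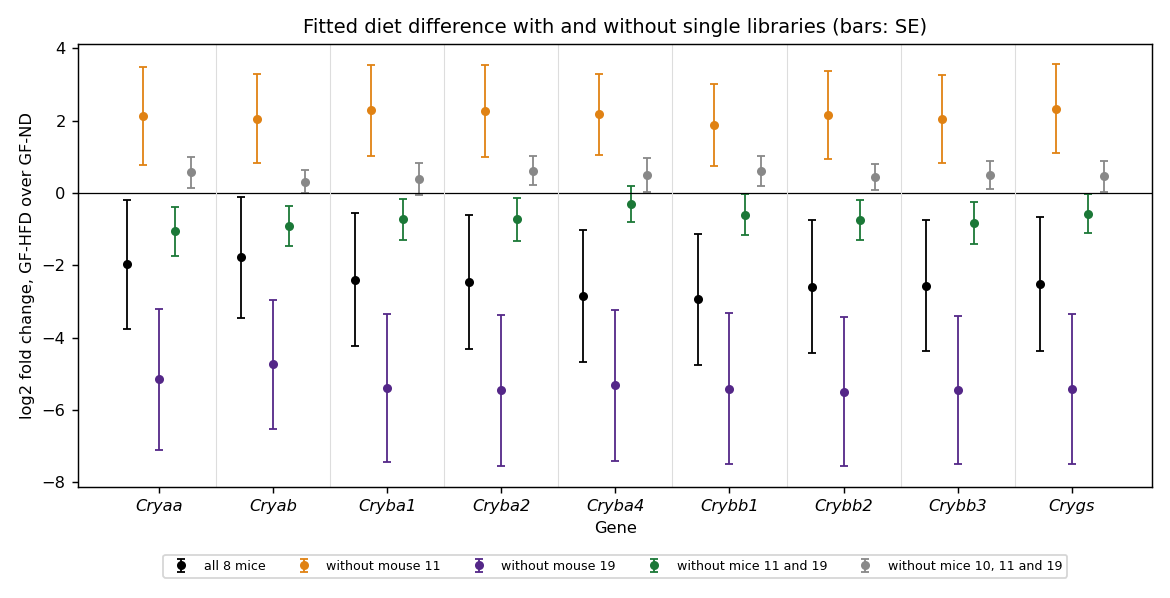
Fitted log2 ratio of the GF-HFD to the GF-ND level (y, bars are the SE of edgeR) for each crystallin (x) in all 8 mice and without 1, 2 or 3 of them. The 9 genes lie at -2.94 to -1.78 with all mice, at 1.88 to 2.33 without mouse 11, at -1.06 to -0.31 without mice 11 and 19 and at 0.32 to 0.62 without mouse 10 too.

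As a sum, the lens fibre genes outside the set were highest in mice 11 and 19, as the crystallins were. The 18 markers on that list summed to 27.8, 53.9, 106 and 1036 CPM in GF-HFD mice 13, 15, 16 and 19 and to 31.9, 119, 13691 and 27.3 CPM in GF-ND mice 9, 10, 11 and 12. All 18 were fitted lower in GF-HFD mice with every mouse included (median log2 fold change -3.88), where 12454 of all 26900 genes were fitted higher. Cryga and Lenep reached the minimum count only through GF-ND mouse 11 (50 and 40 counts there), so their direction was fixed in advance. Without mouse 11 all 16 that were tested were fitted higher (median 2.46), beside 13428 of all 26338 genes. Without mice 11 and 19, 9 of 16 were higher and 7 lower (median 0.13), while all 9 crystallins were lower. Of all genes, 12738 of 25720 were fitted higher there. Without mouse 10 as well, a choice made after the values were seen, 14 of 15 were higher (median 0.86), as were all 9 crystallins and 12587 of all 24952 genes. In that set 2 of the 15 met the thresholds of the study's methods, as did 193 of all genes. In each of these fits 0 were called at the adjusted p. Crygf, at 28 counts or fewer outside mouse 11, met the thresholds of the study's methods without mouse 11 (log2 fold change 6.33), as did 1.34% of all genes. Of the 18, none was at 0 counts in mice 11 and 19, and 1 to 4 were in each of the other 6, among Cryga, Cryge, Crygf, Lenep, Dnase2b and Birc7. The gamma crystallins Crygb, Crygc and Crygd, the filament proteins Bfsp1 and Bfsp2, Mip, and the gap junction protein Gja3 were detected in all 8. No library was free of lens fibre counts, and the origin of these counts in each library was not tested. Crystallin RNA made in the retina and crystallin RNA of lens origin thus cannot be told apart in any library. Fewer cells of a type and less RNA per cell cannot be told apart in whole tissue either.

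The balance between lens fibre genes and the 9 crystallins differed between libraries. The 6 listed gamma crystallins had 45.4, 15.1, 60.5 and 13.9 counts per 1000 counts of the 9 genes in GF-HFD mice 13, 15, 16 and 19 and 30.1, 6.08, 96.3 and 49.8 in GF-ND mice 9, 10, 11 and 12. Mip had 6.22, 56.7, 42.7 and 30.4 per 1000 in the GF-HFD mice and 3.37, 27.97, 32.3 and 8.65 in the GF-ND mice. Gamma crystallins were thus scarcest beside the 9 genes in mice 10, 15 and 19, whereas Mip was scarcest in mice 9, 12 and 13.

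Lgsn, a glutamine synthetase relative of lens fibres, had 2.26 counts per 1000 in GF-HFD mouse 19 and 0.685 in GF-ND mouse 10, against 19.3 in GF-ND mouse 11. The crystallin counts of mice 10 and 19 were thus accompanied by fewer gamma crystallin and Lgsn counts than those of mouse 11. This held for part of the list only. In mice 10, 19 and 11, Bfsp1 had 3.59, 5.69 and 25.8 per 1000 and Bfsp2 had 3.21, 3.40 and 8.57. In the same mice Mip had 27.97, 30.4 and 32.3 per 1000 and Gja3 had 3.03, 3.22 and 3.11. Lgsn was chosen after its values were seen.

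**Figure D4:**
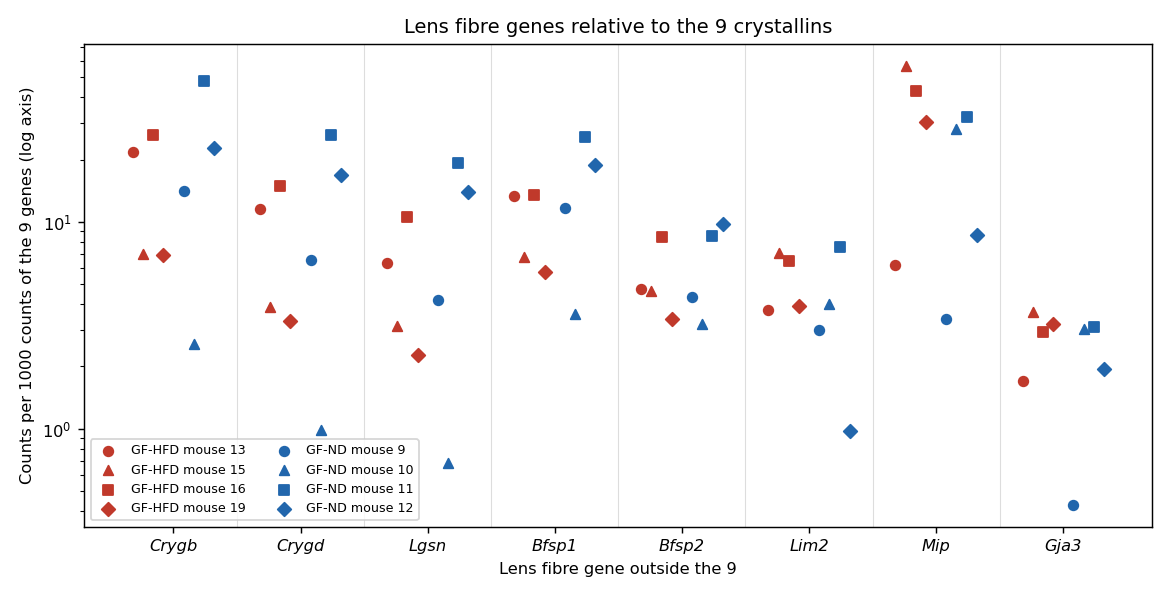
Counts of 8 lens fibre genes outside the crystallin set (x) per 1000 counts of the 9 crystallins (y, log axis) in each library, GF-HFD mice in red left of GF-ND mice in blue. Mip ranges from 3.37 to 56.7 per 1000, and Crygb is highest in GF-ND mouse 11 at 48.0 per 1000 and lowest in GF-ND mouse 10 at 2.58.

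Set against mouse 11 gene by gene, the crystallins of the other libraries were more even than the lens fibre genes. In GF-HFD mouse 13 the 9 crystallins had 0.291 to 0.634% of their counts in GF-ND mouse 11, and in GF-ND mouse 12 they had 0.209 to 0.528%. Cryab was the highest of the 9 by this measure in each of the 7 other libraries, with 0.634, 0.986, 1.399 and 27.96% in GF-HFD mice 13, 15, 16 and 19 and 1.04, 3.90 and 0.528% in GF-ND mice 9, 10 and 12. Lens fibre genes with at least 1000 counts in mouse 11 spanned 0.0962 to 23.05% in GF-HFD mouse 15 and 0.0922 to 23.2% in GF-ND mouse 10. The crystallins spanned 0.511 to 0.986% in mouse 15 and 1.43 to 3.90% in mouse 10. The highest lens fibre gene was Hsf4, a heat shock factor of the lens whose counts lay between 187 and 288 in the libraries other than mouse 11, in 6 of the 7. The upper ends of these fibre ranges are thus Hsf4 alone, and the next gene in mouse 15 was Mip at 1.16%.

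Among regulators of the lens, Pax6 and Prox1, which also act in retinal cells, had high counts in every library. Pax6 counts were 10953 to 12201 in GF-HFD mice against 10504 to 15479 in GF-ND mice, and Prox1 counts 9037 to 10300 in GF-HFD mice against 8758 to 16367 in GF-ND mice, both highest in mouse 11. Foxe3, a factor of the lens epithelium, had 0, 0, 1 and 104 counts in GF-HFD mice 13, 15, 16 and 19 and 0, 8, 896 and 2 in GF-ND mice 9, 10, 11 and 12. Pitx3, a lens factor, had 4, 0, 6 and 134 counts in the GF-HFD mice and 0, 27, 967 and 0 in the GF-ND mice. Foxe3 and Pitx3 were therefore highest in mice 11, 19 and 10, as the crystallins were. Of the 12 regulators listed, 3 were fitted higher and 9 lower in the GF-HFD mice (median log2 fold change -0.14), and 0 were called.

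The other small heat shock proteins did not share 1 pattern. Hspb6, which had the highest counts of them, had 3108 to 3945 counts in the GF-HFD mice against 2083 to 3134 in the GF-ND mice and was lowest in mouse 11. Hspb1, a chaperone that lens cells also make, had 124, 112, 182 and 365 counts in GF-HFD mice 13, 15, 16 and 19 and 132, 148, 9685 and 81 in GF-ND mice 9, 10, 11 and 12. Hspb1 in mouse 19 was thus 3.77% of its count in mouse 11, while Cryab was at 27.96%. Hspb2, which shares its locus with Cryab, had 11, 6, 13 and 88 counts in GF-HFD mice 13, 15, 16 and 19 and 12, 5, 211 and 8 in GF-ND mice 9, 10, 11 and 12. Of the 8 listed, 4 had a higher and 4 a lower fitted level (median log2 fold change 0.05), with 0 called.

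Most of the other genes named as crystallins were steadier. Cryzl1, Crym and Cryz, relatives of enzymes, and the betagamma family gene Crybg3 had 1961 to 2429, 1550 to 1845, 871 to 990 and 1904 to 2103 counts in GF-HFD mice, and 2062 to 2258, 1337 to 1794, 693 to 1219 and 1913 to 2726 in GF-ND mice. Crygn, a gamma crystallin described in the retina, had 7, 17, 40 and 353 counts in GF-HFD mice 13, 15, 16 and 19 and 10, 60, 817 and 5 in GF-ND mice 9, 10, 11 and 12. Crygn was highest in mice 11, 19 and 10, as the 9 crystallins were, at a much lower count. In this list of 9, 3 had a higher and 6 a lower fitted level (median log2 fold change -0.14), and 0 were called.

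Heat shock targets of HSF1, the factor that also induces Cryab, differed in which library was highest. The list summed to 3313 to 3873 CPM in the GF-HFD mice against 3112 to 3839 CPM in the GF-ND mice, with 5 of 10 genes higher, a median log2 fold change of -0.04 and 0 called. Hsp90aa1 and Hspa8, the abundant chaperones that dominate this sum, were highest in mouse 15 (84064 counts) and mouse 11 (53520 counts). The cochaperones Dnajb1 and Bag3 were highest in mouse 11 (4322 and 428 counts), where the inducible chaperone Hspa1a was lowest (411 counts). Genes of retinal stress and gliosis summed to 223 to 489 CPM in GF-HFD mice against 208 to 934 CPM in GF-ND mice, with the maxima in mice 19 and 11. Of these 12 genes, 6 had a higher and 6 a lower fitted level (median 0.10), and 1, the protease inhibitor Serpina3n, met the thresholds of the study's methods at 2.69 (SE 0.77, edgeR adjusted p = 0.649). Gfap, the filament of reactive glia, had 451 to 571 counts in the GF-HFD mice against 295 to 886 in the GF-ND mice, with its maximum in mouse 9. Vim, a filament of glia and of the lens, had 3859 to 13048 counts in the GF-HFD mice against 3021 to 32842 in the GF-ND mice and was highest in mice 19 and 11.

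Markers of other tissues moved with the crystallins only in part. Markers of the cornea and conjunctiva summed to 0.549 to 47.6 CPM in the GF-HFD mice against 1.17 to 156 CPM in the GF-ND mice. Aldh3a1, an enzyme of the cornea, made up most of the sums of mice 19 (1822 counts) and 11 (6206 counts), while the keratins Krt12 and Krt5 were at 0 counts in mouse 19 and at 13 and 31 in mouse 11. Markers of the pigment epithelium summed to 38.3 to 872 CPM in GF-HFD mice against 66.2 to 1601 CPM in GF-ND mice, with the maxima in mice 16 and 11, and those of fibroblasts and sclera to 14.7 to 345 CPM in GF-HFD mice against 16.6 to 209 CPM in GF-ND mice, with the maxima in mice 19 and 11. Markers of the ciliary body and iris summed to 64.2 to 337 CPM in GF-HFD mice against 76.0 to 276 CPM in GF-ND mice. Rod markers, which define the retina, summed to 66884 to 86146 CPM in GF-HFD mice against 39343 to 65759 CPM in GF-ND mice, the lowest being mouse 11. The thresholds of the methods were met by the fibroblast genes Col3a1 (log2 fold change 2.90, SE 0.77) and Lum (4.94, SE 1.52). The globin genes Hba-a1, Hba-a2, Hbb-bs and Hbb-bt (1.39 to 1.91) met them too, as did 0.457% of all genes. Each of these 6 genes had an edgeR adjusted p of 0.649. Col3a1 had 128 counts in mouse 16 and 173 in mouse 19, with a maximum of 26 elsewhere. Lum had 190 and 267 there, with a maximum of 6 elsewhere. Without mouse 19, 0 of the 10 fibroblast genes met the thresholds, while 4 of the 6 blood genes did. The part of these tissues in the crystallin values was not tested.

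The genes outside the set with the pattern most like Cryaa over the 8 libraries, by the root mean square difference of centred log2 CPM among 13676 genes, were Grifin (0.37), the collagen chain Col6a3 (0.49), the basement membrane protein Nid1 (0.50), the growth factor receptor Fgfr3 (0.71) and Bfsp2 (0.74). The other 8 crystallins were at 0.21 to 0.45, and Grifin, a galectin relative of lens fibres, was nearer than Cryba4 (0.45) and Crybb1 (0.37). Grifin had 30, 95, 94 and 1884 counts in GF-HFD mice 13, 15, 16 and 19 and 45, 185, 8861 and 26 in GF-ND mice 9, 10, 11 and 12. Over the 6 libraries without mice 11 and 19 the nearest were Grifin (0.42), Col6a3 (0.50) and Nid1 (0.55), followed by the surface protein Cd24a (0.61) and the scavenger receptor Stab1 (0.67). The 13676 genes had passed a minimum mean log2 CPM over all 8 libraries, so this list is not independent of mice 11 and 19. Grifin was at 0.622 to 4.56 CPM in the 6 and Col6a3 at 0.359 to 6.11 CPM, against 211 and 89.7 CPM in mouse 11.

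For Cryab the nearest genes over 8 libraries were Grifin (0.39), Nid1 (0.52), Cd24a (0.53), Col6a3 (0.55) and Fgfr3 (0.61). Over the 6 libraries they were Grifin (0.39), Cd24a (0.45), Stab1 (0.47), Col11a1 (0.54) and Aifm3 (0.54), while Crybb3 (0.11), Crybb2 (0.13) and Cryba2 (0.18) were the nearest crystallins and Cryba4 (0.35) the farthest. Over the 6 libraries Grifin was the one gene outside the set that came nearer to Cryaa than the farthest crystallin, Cryba4 (0.42), and no such gene came nearer to Cryab than Cryba4 did. These distances are a description of 8 or 6 libraries that every gene shares, among genes filtered by their level over all 8.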

How the data were processed

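RNA of 8 whole retinas was measured, 4 from GF-HFD and 4 from GF-ND mice. The authors aligned reads to GRCm38 with STAR 2.4.2 and obtained gene counts with featureCounts (Subread 1.4.6-p1), and the deposited values are raw counts, with no scaling, filter or pooling. Library totals were 39258006 to 44357518 counts. Even counts outnumbered odd counts 1.91 to 2.36 times among values of 1 to 12, and the strand and pair settings of the counting are not given in the sources used here.

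Genes whose counts summed to at least 10 were compared between diets with edgeR 4.0.16 in R 4.3.3 (TMM factors, quasi-likelihood test, Benjamini-Hochberg adjustment over all genes tested). The SE is the log2 fold change divided by the square root of the test statistic. Log2 CPM used a prior count of 2, and crystallins were also compared by exact permutation (two-sided, 70 arrangements). The code was tested on simulated data. Shares have 95% Wilson intervals. Positions, exon lengths and overlaps are from GENCODE vM21, while the study counted on another release, and upstream sequences are from RefSeq on GRCm38.p6, where 8 of the 9 genes matched.

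The members and the gene lists were chosen with earlier results of these data known. Named genes are all 9 members, at most 4 of the highest mean CPM in each related list, list members past a threshold, and the 5 genes most like Cryaa and Cryab. Of the other genes, Lgsn, Gja3, Foxe3, Pitx3, Crygn, Hspb2, Hsf4, Dnajb1, Bag3, Hspa1a, Krt12, Krt5, Cryga, Cryge, Crygf, Crygc, Lenep, Dnase2b and Birc7 were chosen after their values were seen, and 1 gene of the lens fibre list is not reported here. The alternatives tried were other scalings (RLE, upper-quartile, library totals), other filters (none, filterByExpr, 10 CPM in 4 libraries), robust dispersion, a prior count of 0.5, DESeq2 1.42.0, limma-voom (limma 3.58.1), each mouse left out in turn, and sets of mice left out.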

Additional observations from a re-analysis of the deposited data

Results flagged for a closer look

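In each diet, 1 mouse stood apart from the other 3 in the CPM of all 9 crystallins, by a gap to the next mouse that took more of the group's range than Dixon's 95% critical value for 4 samples. In GF-HFD retinas this was mouse 19, and the gap as a fraction of the range was Cryaa 0.972, Cryab 0.974, Cryba1 0.966, Cryba2 0.971, Cryba4 0.946, Crybb1 0.961, Crybb2 0.964, Crybb3 0.969, Crygs 0.967. In GF-ND retinas it was mouse 11, with Cryaa 0.966, Cryab 0.965, Cryba1 0.981, Cryba2 0.981, Cryba4 0.988, Crybb1 0.982, Crybb2 0.982, Crybb3 0.979, Crygs 0.984. Chance flags about 1 in 20 groups, and the 9 genes share their libraries, so these are not 18 separate observations. Mice 11 and 19 were known from earlier results to be high in crystallins, so their flags are a description and no new support. Expressed as a share of the counts of the 9 genes, 1 of 18 values stood apart in this way, Crybb3 in GF-ND mouse 11 (2.59% against 2.25 to 2.28% in the other 3 GF-ND mice, a fraction of 0.931).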

How the results depend on the processing

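All 9 fitted log2 fold changes stayed below 0 with RLE factors, library totals, upper-quartile factors, each filter, robust dispersion and DESeq2 (medians of -2.54 to -2.47) and with limma-voom (median -0.84), and short of the threshold in all of these but DESeq2, which gave no p for any of the 9. Over the 8 fits without 1 mouse, Cryaa ranged from -5.16 to 2.13, Cryab from -4.74 to 2.05, Cryba1 from -5.40 to 2.29, Cryba2 from -5.46 to 2.27, Cryba4 from -5.32 to 2.18, Crybb1 from -5.41 to 1.88, Crybb2 from -5.49 to 2.16, Crybb3 from -5.44 to 2.05 and Crygs from -5.43 to 2.33, and only the fit without mouse 11 turned the sign. Without mice 10, 11 and 19 together, chosen after seeing the data, the values were 0.57 (Cryaa), 0.32 (Cryab), 0.40 (Cryba1), 0.62 (Cryba2), 0.51 (Cryba4), 0.60 (Crybb1), 0.45 (Crybb2), 0.49 (Crybb3) and 0.46 (Crygs), with 9 of 9 higher. The number of higher crystallins was 0 to 9 over the fits without 1 mouse, and the number of all genes called 0 to 421 there, 55 without mice 11 and 19 and 46 in DESeq2. By the thresholds of the methods, 123 genes were called in all 8 mice, 65 to 353 without 1 mouse, 294 without mice 11 and 19, 193 without mice 10, 11 and 19, 200 in DESeq2 and 5 with 10 CPM in 4 libraries. Without mouse 19 and without mouse 11, the exact permutation p was 0.486 and 0.686 for Cryaa, 0.429 and 0.771 for Cryab, 0.514 and 0.714 for Cryba1, 0.543 and 0.657 for Cryba2, 0.600 and 0.600 for Cryba4, 0.571 and 0.657 for Crybb1, 0.486 and 0.771 for Crybb2, 0.486 and 0.714 for Crybb3 and 0.514 and 0.686 for Crygs. Ratios of mouse 11 or 19 to the other libraries moved by less than the spread between these in 54 of 54 rescaled values. The TMM factors lay between 0.9494 and 1.043 and that spread is wide, so this check could hardly have failed. No paired analysis was possible because the groups share no replicate numbers. With 4 mice a group, the SEs of 1.67 to 1.85 on the log2 scale limit which differences could be detected.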
